A study of Mus musculus with 12 samples.

Results

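Bone marrow-derived macrophages (BMDMs) lacking Acod1 were compared with wild-type (WT) BMDMs after both had received 4-octyl itaconate (OI) and particulate matter (PM). The comparison uses every library of the series labelled with that treatment, 2 from Acod1-/- and 2 from WT cells, which makes 4 of its 12 libraries. The other 8 libraries are the same genotypes with vehicle or with PM alone. The question is whether cells that cannot make their own itaconate differ in their transcriptome once an itaconate derivative is supplied from outside.

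The mutant mice carry the strain label C57BL/6NJ-Acod1em1(IMPC)J/J and the WT mice the label C57BL/6. In both groups cells from the bone marrow were grown with M-CSF (macrophage colony-stimulating factor), pretreated with 0.25 mM OI for 2 hours and then exposed to 20 μg/cm2 PM for 24 hours. PM is a collected urban dust that macrophages take up. The mice were young adult males. Nothing in the labels says whether replicates came from separate animals, so p-values measure only the spread between replicate libraries. That spread was estimated over all 12 libraries together, not over the 4 compared here alone. The methods of the study name the WT mice as C57BL/6NJ, the background of the mutant, whereas the label gives no substrain. Where a gene differs between C57BL/6 substrains, the substrain of the WT mice and the deletion cannot be told apart from these libraries.

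Itaconate is formed in mitochondria when the protein product of Acod1 decarboxylates cis-aconitate, an intermediate of the tricarboxylic acid (TCA) cycle. Activated macrophages express Acod1 strongly. OI is an itaconate ester that enters cells and modifies reactive cysteines of proteins, among them KEAP1, the repressor of the antioxidant transcription factor NRF2. A second stress pathway, the integrated stress response, raises translation of the transcription factor ATF4, whose targets import and synthesise amino acids.

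The 4 libraries held 33616577 to 35332094 counted reads, and all 12 held 33616577 to 36817898. Normalized CPM (reads of a gene scaled to a common library size) are used throughout as levels, and differences are log2 fold changes of Acod1-/- over WT. Genes with a CPM above 1.5 in at least 2 of the 4 libraries were tested, which left 10556 of the 48795 listed genes. A differentially expressed gene (DEG) had an adjusted p below 0.05 and a change of more than 2-fold, that is 1 on the log2 scale.

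The cells carried the transcriptome of macrophages. All 18 genes of a macrophage marker list were tested, and their summed level was 21279 and 22807 CPM in WT and 22155 and 22342 CPM in Acod1-/- libraries. Their median difference was -0.03, with 2 of 18 higher and 2 lower by adjusted p, beside 2.9% and 4.38% of all tested genes. Of the marker lists for other cells, 2 of 14 neutrophil genes passed the filter, 2 of 13 B-cell genes, 1 of 13 T- and NK-cell genes, 1 of 11 dendritic-cell genes, 0 of 12 mast-cell genes, 1 of 12 erythroid and megakaryocyte genes and 1 of 13 stromal genes. Of these, Ighm passed the test and was lower (-0.68), but not without WT replicate 2 described below (-0.44, adjusted p = 0.0854), where Blnk passed and was higher (0.34). The T-cell gene Cd3e and the erythroid gene Hba-a1 had no read in any of the 4 libraries. Of 12 osteoclast markers 8 passed the filter, and these are described with Mmp9 below.

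Replicate 2 of the WT cells stood apart from the other 3 libraries. Scaled by its degrees of freedom, a chi-square comparing the WT replicates over 12501 genes with at least 20 reads came to 58.5, against 4.16 for the Acod1-/- replicates (12470 genes), where counting noise alone would give 1. In WT, 85 genes differed by at least 1 on the log2 scale between replicates, against 1 gene in Acod1-/- cells. The difference between the WT replicates followed gene length, with a Spearman correlation across genes of -0.64 (-0.32 in Acod1-/- cells), and genes are not independent replicates. Short transcripts were relatively more abundant in WT replicate 2, by a median of 0.31 for the shortest of 4 length classes, and long ones less abundant, by a median of -0.29 for the longest class.

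Individual genes show the size of this spread. Atp7a, a copper transporter with a long transcript, stood at 68.6 CPM in WT replicate 1 and 21.8 CPM in replicate 2. Hipk2, a nuclear kinase, went from 43.3 to 17.3 CPM and Kif13b, a kinesin motor, from 34.5 to 14 CPM. In the other direction, Mt2, a short metallothionein transcript, stood at 193.8 and 399 CPM, the chemokine Cxcl3 at 29.2 and 61.0 CPM and the calcium-binding S100a8 at 28.6 and 58.9 CPM. For none of these 6 genes were the Acod1-/- replicates as far apart. The WT replicates after PM alone differed in the same way, with a correlation with length of -0.62 and a chi-square per degree of freedom of 27.3, and their deviations correlated across genes with those of the WT replicates after OI and PM at 0.80.

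The genotype difference carried the same slope. Its median was -0.17 in the shortest of the 4 length classes and 0.14 in the longest, with -0.06 and 0.02 in the classes between. Without WT replicate 2 the 4 medians lay between -0.01 and 0.01, and without WT replicate 1 they ran from -0.33 to 0.29. Results are therefore given with all 4 libraries and, where it matters, without WT replicate 2, in which case the remaining WT library is assumed to vary as the other groups do.

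**Figure D1:**
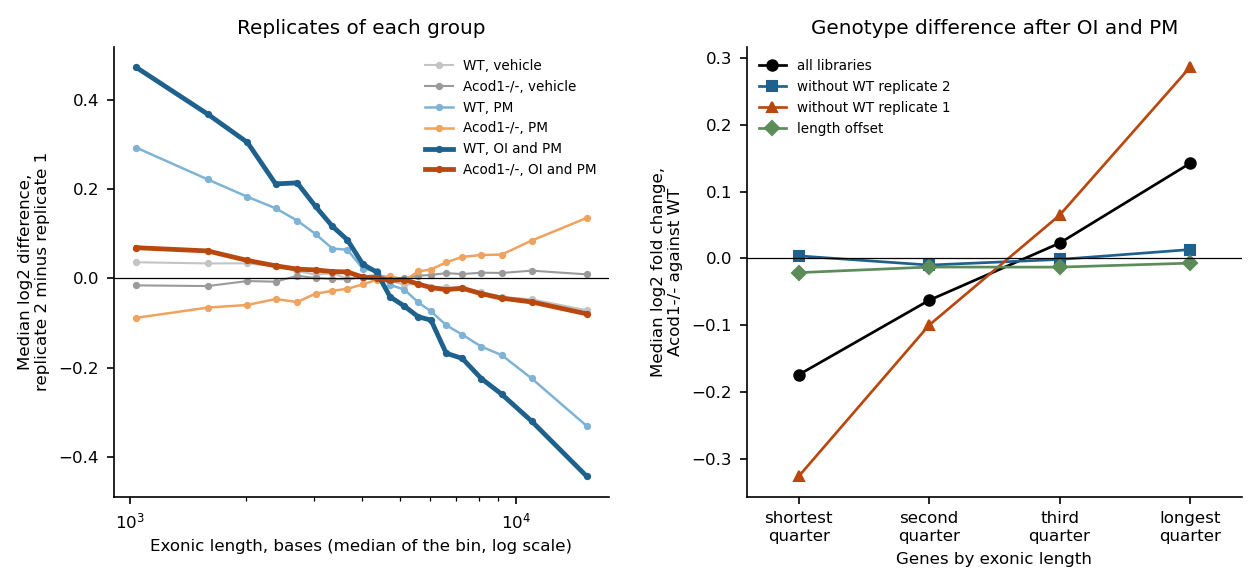
Left, median log2 difference between replicates (replicate 2 minus replicate 1) against exonic length (bases, log axis) in bins of genes, 1 line per group, where the line for WT after OI and PM is the steepest. Right, median genotype difference (log2) in 4 length classes with all libraries, without either WT replicate and with an offset for gene length, running from -0.17 to 0.14 with all libraries and lying between -0.01 and 0.01 without WT replicate 2.

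Acod1 itself still had reads in the mutant cells. Its level was 32.3 and 55.7 CPM in WT and 24.3 and 26.6 CPM in Acod1-/- libraries, so the groups did not overlap but WT replicate 1 lay close to the mutants. The difference was -0.79 (SE 0.208, adjusted p = 0.0512), and -0.34 (adjusted p = 0.139) without WT replicate 2. These counts sum reads over the whole gene (chr14:103046977-103056573, GRCm38) and do not show which exon they came from. Their level is therefore no test of whether a functional transcript was made.

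Between the genotypes, 77 of the 10556 tested genes were DEGs (0.729%). Of these, 28 were higher in Acod1-/- cells (0.265% of tested genes) and 49 were lower (0.464%). By adjusted p alone 768 genes differed (7.28%), 306 higher (2.9%) and 462 lower (4.38%). All 77 DEGs had groups that did not overlap, as did 53.4% of all tested genes. Of the 77, 40 passed the filter on low values in all 4 libraries. Another 11, all higher, passed it in both Acod1-/- libraries alone, and 21, all lower, in both WT libraries alone, so that these had to differ in level. Of the DEGs named below, Camk2b, Ms4a4a and Rtp4 are among the 11 and Slco4a1 and Gsta4 among the 21. In bulk RNA, fewer cells of a kind and less RNA per cell cannot be told apart.

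The DEGs were mostly weakly expressed genes, with a median level of 3.37 CPM against 31.9 CPM over all tested genes. Only 27 of them had a mean level of at least 5 CPM, 12 higher and 15 lower. Protein-coding genes made up 72 of the 77. Exons of 19 DEGs overlap those of another annotated gene, so their reads may be shared.

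The number of DEGs depended on single libraries. It was 57 without WT replicate 2 (26 higher, 0.246% of tested genes, and 31 lower, 0.294%), 266 without WT replicate 1, 37 without Acod1-/- replicate 1 and 44 without Acod1-/- replicate 2. Many of the 77 DEGs lost their call without WT replicate 2, and more did so without either mutant library. All 77 kept their sign in each of these fits. Spread was estimated over all 12 libraries, and with edgeR on the 4 libraries alone 2 genes were DEGs.

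**Figure D2:**
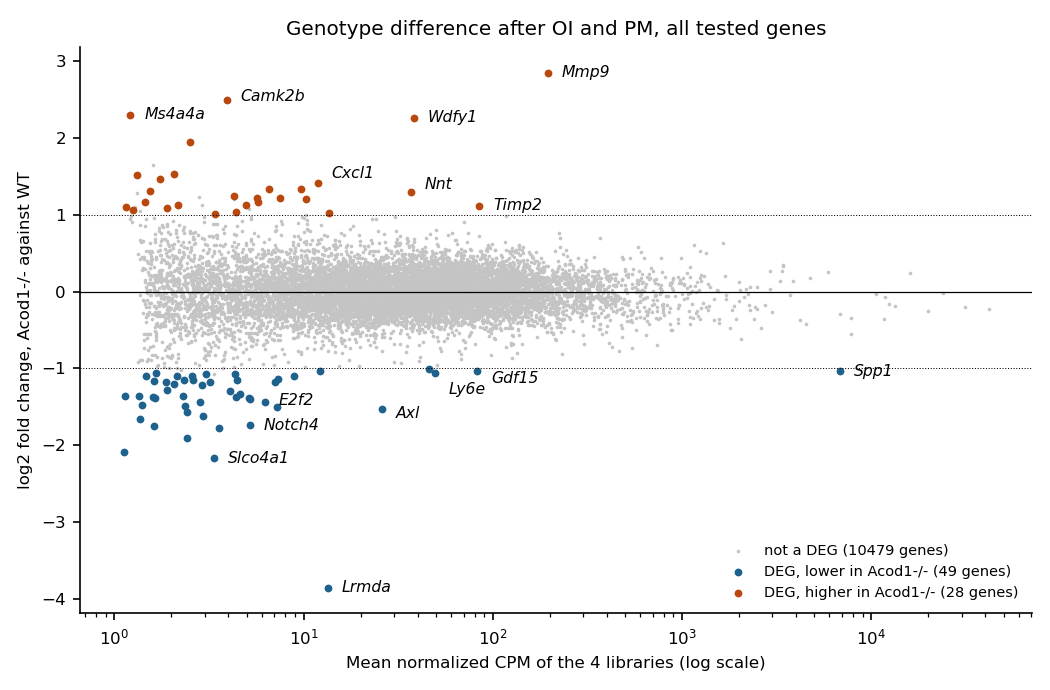
Genotype difference (log2 fold change of Acod1-/- over WT) against mean level (CPM, log axis) for 10556 tested genes after OI and PM, with DEGs coloured by direction. The 28 higher and 49 lower DEGs sit mostly at low levels, with Mmp9, Wdfy1 and Nnt above and Axl, Gdf15 and Spp1 below among the better expressed, and dotted lines mark the fold threshold.

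The furthest increase was that of a matrix enzyme. Mmp9, gelatinase B, which degrades basement membrane collagen, stood at 49.3 and 46.8 CPM in WT and at 331 and 358 CPM in Acod1-/- libraries (chr2:164940780-164955850). No other DEG rose as far, with a difference of 2.84 (SE 0.077, adjusted p = 1.23e-07), and 2.81 without WT replicate 2. Timp2, an inhibitor of matrix metalloproteinases, was at 57.4 and 50.02 CPM in WT and 112 and 120 CPM in mutants, a difference of 1.11 (adjusted p = 0.000102). Adamts1, a secreted proteoglycan-cleaving protease, was low in all libraries (1.72 and 0.989 CPM in WT, 2.82 and 3.15 CPM in mutants), and its difference of 1.12 became 0.79 (adjusted p = 0.0755) without WT replicate 2.

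The family did not move as one. Of 12 tested matrix metalloproteinases and inhibitors, 5 were higher and 2 lower by adjusted p, beside 2.9% and 4.38% of all tested genes, and 3 of the higher ones were DEGs. The median was 0.19. Without WT replicate 2, 2 were higher and 2 lower, beside 1.49% and 2.3% of all genes, and the median was 0.05. Mmp13, a collagenase, fell from 595 and 578 CPM in WT to 347 and 342 CPM in mutants (-0.77, adjusted p = 0.000163). The surface sheddases were split, with Adam17 higher (0.30, not called without WT replicate 2) and Adam8 lower (-0.33). Mmp12, macrophage elastase, was the most abundant member at 28988 to 34706 CPM and did not pass (-0.20, adjusted p = 0.0726).

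Mmp9 is also a marker of osteoclasts, the bone-resorbing relatives of macrophages, and of neutrophils. Of 8 tested osteoclast markers, 4 were higher (Mmp9, Dcstamp, Ctsk and Acp5) and 1, Itgb3, was lower, beside 2.9% and 4.38% of all tested genes, with a list median of 0.31. Of these Acp5 was not called without WT replicate 2, where the median was 0.23. Dcstamp, a fusion protein, was at 17.3 and 22.2 CPM in WT and 29.2 and 31.7 CPM in mutants. The neutrophil list summed to 433 and 392.5 CPM in WT and 455 and 452 CPM in mutants, most of it from Mmp8, which macrophages also express. Of its 2 tested genes, Mmp8 differed by 0.19 and S100a8 by -0.45, and neither passed. S100a8 was at 28.6 and 58.9 CPM in WT and 31.5 and 32.3 CPM in mutants, so its groups overlapped. Granule genes of that list were at the floor, with 1 and 1 reads of Ltf in WT against 18 and 9 in mutants, 6 and 1 of Ngp against 24 and 13, and at most 2 reads of Mpo or Elane in any library. The part of such cells in the difference was not tested.

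**Figure D3:**
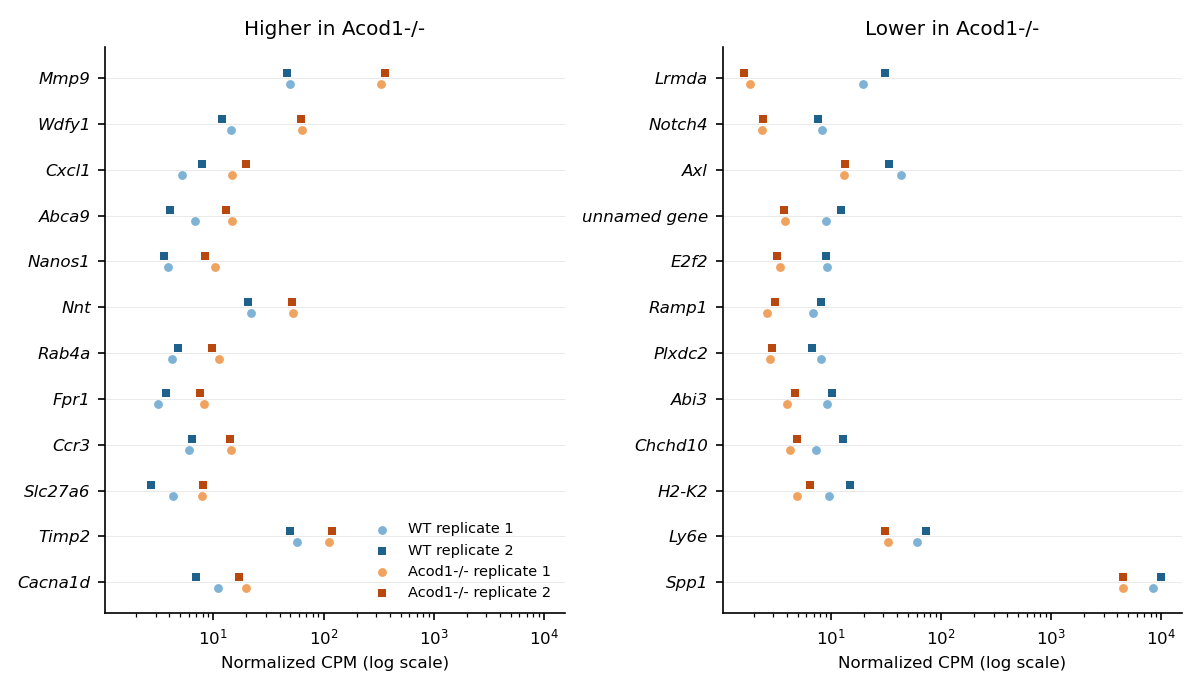
Normalized CPM (log axis) in each of the 4 libraries for the 12 leading higher and 12 leading lower DEGs with a mean of at least 5 CPM, 1 of them a gene without a symbol. Each point is 1 library, and for every gene drawn the 2 mutant points lie on one side of the 2 WT points.

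Genes of the chemokine and acute-phase lists were among the higher DEGs, as was a chemokine receptor. Cxcl1, a neutrophil-attracting chemokine, was at 5.23 and 7.81 CPM in WT and 14.8 and 19.7 CPM in mutants (1.41, SE 0.187, adjusted p = 0.00332), and the difference was larger without WT replicate 2 (1.72). Ccr3, a chemokine receptor best known from eosinophils, more than doubled from 5.98 and 6.46 CPM to 14.4 and 14.1 CPM. Fpr1, the receptor for bacterial formyl peptides, was at 3.12 and 3.69 CPM in WT and 8.15 and 7.61 CPM in mutants. Saa3, an acute-phase serum amyloid made by macrophages, was at 2.71 and 3.56 CPM in WT and 7.49 and 6.11 CPM in mutants (1.12, adjusted p = 0.0023), and fell just short of the fold threshold without Acod1-/- replicate 1 (0.97) or WT replicate 1 (0.93). In each of these 4 genes both mutant libraries lay above both WT libraries.

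Other higher DEGs had varied roles. Camk2b, a calcium/calmodulin-dependent kinase, stood at 1.22 and 1.15 CPM in WT and 6.38 and 6.96 CPM in mutants (2.49, SE 0.123, adjusted p = 1.19e-05). Rab4a, a GTPase of endosome recycling, was at 4.25 and 4.81 CPM against 11.4 and 9.74 CPM. Nanos1, an RNA-binding protein, was at 3.89 and 3.59 CPM against 10.4 and 8.43 CPM. Abca9, a lipid transporter family member, was at 6.87 and 4.02 CPM against 14.8 and 12.9 CPM, and was no longer called when either mutant library was left out. Slc27a6, a fatty acid transport protein, and Cacna1d, a calcium channel subunit, rose by 1.17 and 1.02, but by 0.88 and 0.73 without WT replicate 2, and leaving out either mutant library ended these calls too.

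Members of the MS4A family, tetraspanning membrane proteins of macrophages and B cells, leaned upwards, as after PM alone and with vehicle (medians 0.53 and 0.35). All 6 tested members had positive differences, with a median of 0.43 against -0.02 over all tested genes. By adjusted p 3 were higher, beside 2.9% of all tested genes. The most abundant members, Ms4a6d (0.01) and Ms4a7 (0.08), did not pass. Without WT replicate 1, 4 members were positive and 2 negative, with a median of 0.61. Ms4a4a, the DEG of the group, was near the filter at 0.565 and 0.231 CPM in WT and 1.92 and 2.11 CPM in mutants, and lost its call without either mutant library. Ms4a6b, at 6.69 and 7.12 CPM against 13.7 and 13.9 CPM (adjusted p = 0.000605), doubled but stayed marginally under the fold threshold.

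Of the higher DEGs, 2 are genes known to differ between C57BL/6 substrains. Wdfy1, an endosomal adaptor, stood at 14.4 and 12 CPM in WT and 64.1 and 62.5 CPM in mutants (2.26, SE 0.125, adjusted p = 2.64e-05). Nnt, the mitochondrial nicotinamide nucleotide transhydrogenase that supplies NADPH and is disrupted in C57BL/6J mice, stood at 22 and 20.7 CPM against 52.7 and 51.6 CPM (1.29, SE 0.0604, adjusted p = 1.11e-05). Of the 5 tested genes of this substrain list, these 2 were higher and 1, Ide, was lower (-0.48), beside 2.9% and 4.38% of all tested genes. The other 2 did not pass. Wdfy1 and Nnt were higher in the mutants under the other treatments as well. Wdfy1 differed by 2.16 with vehicle and 1.96 after PM. Nnt was at 37.9 and 38.2 CPM in WT against 73.2 and 75.1 CPM with vehicle (0.96), and differed by 0.95 after PM. The WT label names no substrain and the methods name C57BL/6NJ. A substrain difference between the groups was not tested, and it could not be told apart from the deletion in any genotype difference given here.

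Among the decreases, Lrmda, a leucine-rich repeat gene associated with melanocyte differentiation, fell furthest. It stood at 19.4 and 30.8 CPM in WT and at 1.86 and 1.62 CPM in mutants, 14.4-fold lower (-3.85, SE 0.24, adjusted p = 6.55e-05), and -3.48 without WT replicate 2. Lrmda lies on the chromosome of Acod1, at chr14:22019712-23056085. Of 18 tested genes within 5 Mb of Acod1, itself among them, 0 were DEGs by edgeR and 2 passed by adjusted p, beside 7.28% of all tested genes, Ednrb (0.48) and Rnf219 (0.55), neither of which passed without WT replicate 2.

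Several lower DEGs encode secreted proteins. Spp1, osteopontin, an adhesive cytokine and one of the most abundant transcripts, was at 8408 and 9966 CPM in WT and 4486 and 4472 CPM in mutants (-1.04, SE 0.101, adjusted p = 0.000761). Without WT replicate 2 its difference was -0.91, and with an offset for gene length -0.87, both under the fold threshold. With total count scaling Spp1 was not a DEG either. Gdf3, a TGF-beta family ligand, was at 5.05 and 6.07 CPM in WT and 1.62 CPM in each mutant library (adjusted p = 0.000233). Gdf15, a stress-induced ligand of the same family, was at 95.8 and 127 CPM against 50.6 and 58.3 CPM (-1.03, adjusted p = 0.00285). Its difference was under the fold threshold without WT replicate 2 (-0.81), with the offset for gene length (-0.87), with total count scaling (-0.97) and without Acod1-/- replicate 1 (-0.93). Ccl2, the main monocyte attractant, was low in both groups, at 4.61 and 6.99 CPM against 2.31 and 2.41 CPM (-1.29, adjusted p = 0.0115), and -0.96 without WT replicate 2, and its call was also lost without either mutant library.

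Others encode receptors and transporters. Axl, a receptor tyrosine kinase that recognises apoptotic cells through GAS6, was at 43.2 and 33.9 CPM in WT and 13.3 and 13.4 CPM in mutants (-1.53, SE 0.112, adjusted p = 0.000163), and -1.69 without WT replicate 2. Notch4, a Notch receptor, was at 8.35 and 7.62 CPM against 2.37 and 2.41 CPM. Ramp1, a subunit of the receptor for the neuropeptide CGRP, was at 6.90 and 8.21 CPM against 2.64 and 3.12 CPM, a call lost without Acod1-/- replicate 1. Plxdc2, a transmembrane plexin-domain protein, was at 8.12 and 6.76 CPM against 2.79 and 2.90 CPM. Slco4a1, an organic anion transporter, was at 5.74 and 5.28 CPM against 1.08 and 1.37 CPM, with a difference of -2.17.

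Some of the smaller decreases fell short of the fold threshold without WT replicate 2, though they still passed by adjusted p. Ly6e, a GPI-anchored surface protein, was at 60.1 and 72.8 CPM in WT against 33.1 and 30.8 CPM, and moved from -1.06 to -0.91 without that library. Chchd10, a small mitochondrial protein, was at 7.31 and 12.9 CPM against 4.23 and 4.89 CPM, and moved from -1.14 to -0.68. H2-K2, annotated as a transcribed pseudogene of the class I histocompatibility genes, with which it may share reads, moved from -1.09 to -0.74. The calls of Chchd10 and H2-K2 were lost without either mutant library as well. Abi3, an actin-regulating adaptor whose exons overlap those of Gngt2, was lower by -1.17 and remained a DEG without that library (-1.09).

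Receptors for apoptotic cells other than Axl did not follow it as a group. Of 20 tested genes of TAM receptor signalling and efferocytosis, 1 was higher and 4 were lower by adjusted p, beside 2.9% and 4.38% of all tested genes, and their median was 0.02. Without the second WT library 1 was higher and 3 were lower, beside 1.49% and 2.3%. The other lower members were Tgm2, a transglutaminase, at 50.2 and 55.5 CPM against 28.1 and 28.3 CPM (-0.91, adjusted p = 0.000708), Itgb3 (-0.67) and Havcr2 (-0.28), the last not called without WT replicate 2. Stab1, a scavenger receptor for phosphatidylserine, was higher (0.70).

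An ATF4 stress response list leaned downwards in Acod1-/- cells. Of 31 genes on an ATF4 stress response list 26 were tested, and the other 5, among them Cth, Cbs and Fgf21, were under the filter. All 26 had negative differences, with a median of -0.57 against -0.02 over all tested genes. By adjusted p 15 of 26 were lower and 0 higher, beside 4.38% lower among all genes, and 24 of 26 had groups that did not overlap, as did 53.4% of all tested genes. Without WT replicate 2, 25 of 26 were negative, the median was -0.42 and 8 passed (2.3% of all genes were lower there). With an offset for gene length the median was -0.51 and 20 passed, beside 8.46% of all genes.

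The 250 bases before the transcription start are shown for list members, other than Atf3, that hold the letters TGATGNAA. These letters are known as the C/EBP-ATF response element (CARE), and ATF4 binds such elements in its targets. Sequences are from RefSeq (GRCm38.p6) and read 5′ to 3′ on the strand of the gene, with matches on either strand in capitals. The windows are chr6:7693210-7693459 (minus strand) for Asns, chr7:126625471-126625720 (minus) for Nupr1, chr2:119350992-119351241 (plus) for Chac1, chr11:120643749-120643998 (minus) for Pycr1 and chr3:50443614-50443863 (minus) for Slc7a11.
Asns: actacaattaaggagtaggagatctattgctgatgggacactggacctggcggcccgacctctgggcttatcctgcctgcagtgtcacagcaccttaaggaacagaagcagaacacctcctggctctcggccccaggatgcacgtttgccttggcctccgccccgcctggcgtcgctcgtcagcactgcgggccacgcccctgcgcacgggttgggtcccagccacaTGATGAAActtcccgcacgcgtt
Nupr1: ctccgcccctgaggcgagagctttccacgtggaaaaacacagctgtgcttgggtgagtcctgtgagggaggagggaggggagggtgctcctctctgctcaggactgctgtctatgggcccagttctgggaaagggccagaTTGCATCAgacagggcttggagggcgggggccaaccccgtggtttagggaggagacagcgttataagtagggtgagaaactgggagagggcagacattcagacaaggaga
Chac1: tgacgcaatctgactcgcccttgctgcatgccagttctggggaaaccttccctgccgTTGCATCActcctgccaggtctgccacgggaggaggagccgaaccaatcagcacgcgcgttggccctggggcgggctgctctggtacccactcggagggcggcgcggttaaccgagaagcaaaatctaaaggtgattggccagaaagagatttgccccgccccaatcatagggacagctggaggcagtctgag
Pycr1: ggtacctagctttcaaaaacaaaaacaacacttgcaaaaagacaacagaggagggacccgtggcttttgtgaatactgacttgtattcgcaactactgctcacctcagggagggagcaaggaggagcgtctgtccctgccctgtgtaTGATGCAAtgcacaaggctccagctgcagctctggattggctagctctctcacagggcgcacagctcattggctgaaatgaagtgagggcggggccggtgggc
Slc7a11: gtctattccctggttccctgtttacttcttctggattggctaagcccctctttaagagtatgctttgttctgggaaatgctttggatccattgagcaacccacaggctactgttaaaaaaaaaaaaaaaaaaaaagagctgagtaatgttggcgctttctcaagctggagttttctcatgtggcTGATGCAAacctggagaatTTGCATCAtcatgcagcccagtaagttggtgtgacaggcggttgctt

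Of 28 windows of 24 list genes, 6 (21.4%) held TGATGNAA on either strand, against 1.99% of 10714 windows of all tested genes with a window. The sixth was that of Atf3, a gene that did not pass (-0.16, adjusted p = 0.106). Among DEG windows, 0 of 20 for higher and 2 of 39 (5.13%) for lower genes held it. A match describes the letters only.

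The genes with these windows did not all move alike. Asns, asparagine synthetase, was at 125 and 166 CPM in WT and 90.5 and 86.3 CPM in mutants (-0.72, SE 0.124, adjusted p = 0.0119), and -0.50 (adjusted p = 0.015) without WT replicate 2. Nupr1, a stress-induced chromatin protein, was at 6.36 and 9.76 CPM against 3.51 and 4.86 CPM (-0.94, adjusted p = 0.0488), and -0.61 (adjusted p = 0.199) without that library. Chac1, which degrades glutathione, was at 4.85 and 7.52 CPM against 3.39 and 3.02 CPM (-0.94, adjusted p = 0.052), just outside the threshold, as was Pycr1 of proline synthesis (-0.91, adjusted p = 0.0662). Slc7a11, the cystine importer, whose window holds 2 matches, was at 439 and 392 CPM against 417 and 378 CPM (-0.06, adjusted p = 0.763), and its groups overlapped.

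Atf4 itself was lower, at 396 and 545 CPM in WT and 317 and 334 CPM in mutants (-0.53, SE 0.127, adjusted p = 0.0377), and -0.28 (adjusted p = 0.0902) without WT replicate 2. Ddit3, the pro-apoptotic partner CHOP, was at 66.2 and 106 CPM against 49.2 and 48.7 CPM (-0.82), and -0.44 (adjusted p = 0.0665) without that library. Its target Trib3, a pseudokinase that restrains the response, was at 34.0 and 46.0 CPM against 24.8 and 24.9 CPM (-0.69), and -0.45 (adjusted p = 0.0159). In these genes WT replicate 2 was the highest library throughout.

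The ATF4 list includes enzymes of serine and one-carbon metabolism. Phgdh, the first enzyme of serine synthesis, was at 5.05 and 7.72 CPM in WT and 2.88 and 2.02 CPM in mutants (-1.38, SE 0.267, adjusted p = 0.0174), but its call was lost when WT replicate 2 (-1.04) or either mutant library was left out. Psat1, the next enzyme, differed by -0.59, the mitochondrial Shmt2 by -0.42 and Mthfd2 by -0.57. Aldh18a1, of proline synthesis, differed by -0.57 and the amino acid transporters Slc7a5 and Slc3a2 by -0.61 and -0.35. Of these, Shmt2, Slc7a5 and Slc3a2 were not called without WT replicate 2. Sesn2, an amino acid sensor, was steady between replicates, at 43.3 and 44.6 CPM against 31.4 and 32.2 CPM (-0.47, adjusted p = 0.00341), and -0.45 without WT replicate 2.

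The list was closer to 0 in the other treatments. Its median genotype difference was -0.18 after PM alone, where 1 of 26 was lower by adjusted p (1.25% of all genes), and -0.00 with vehicle, where 0 of 26 passed by edgeR (1 at an unadjusted p under 0.05, and 0.843% of all genes were lower by adjusted p). Gdf15, a DEG after OI and PM, differed by -0.75 after PM and -0.07 with vehicle. Tested directly, the genotype difference after OI and PM minus that after PM had a median of -0.34 over the list, and minus that with vehicle a median of -0.48. By edgeR 0 of 26 passed by adjusted p in either test, while 10 and 18 of 26 had an unadjusted p under 0.05, beside 6.14% and 7.99% of all tested genes. Both tests include WT replicate 2, without which the list median after OI and PM moved from -0.57 to -0.42. Their values for the list without that library are not given here.

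**Figure D4:**
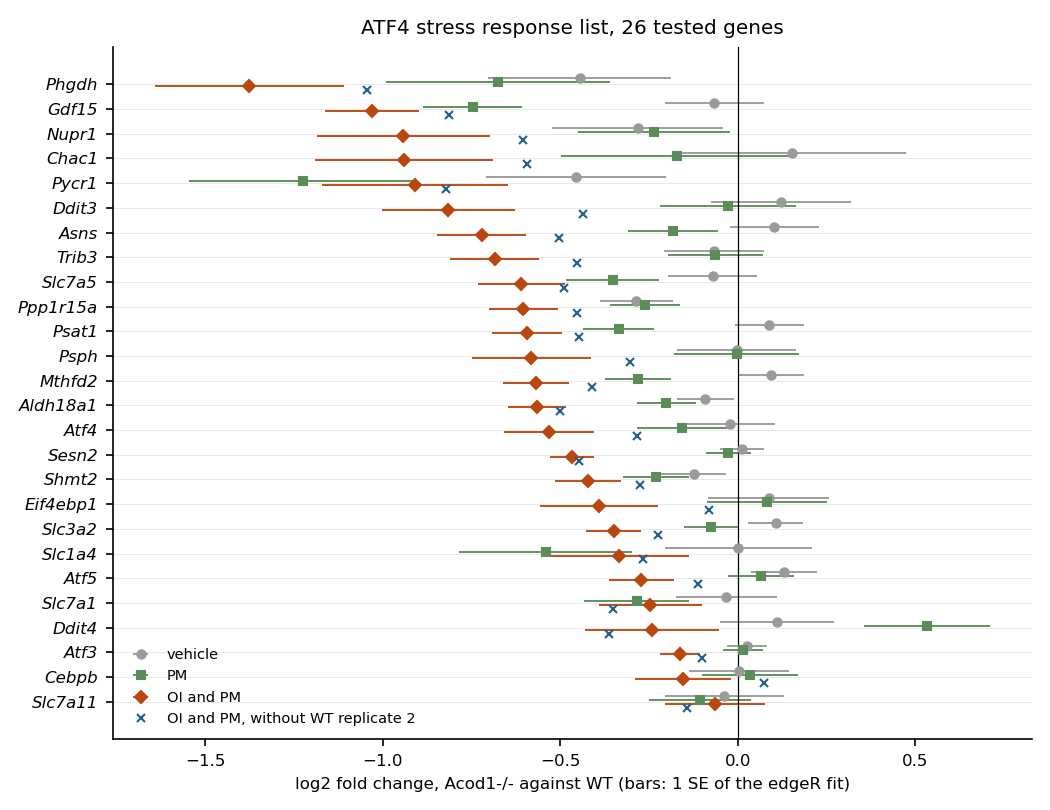
Genotype difference (log2 fold change of Acod1-/- over WT) of the 26 tested ATF4 list members with vehicle, after PM, after OI and PM, and after OI and PM without WT replicate 2 (crosses), with bars of 1 SE of the fit. After OI and PM all 26 points lie below 0 with all libraries, with a median of -0.57, and 25 do so without WT replicate 2, with a median of -0.42.

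Targets of p53, which share Gdf15 and Sesn2 with the ATF4 list, leaned downwards. Of 23 tested, 17 had negative differences, 9 were lower and 1 higher by adjusted p, beside 4.38% and 2.9% of all tested genes, and the median was -0.33. When WT replicate 2 was dropped, 8 were lower and 0 higher, beside 2.3% and 1.49% of all genes, and the median was -0.24. Cdkn1a, the cyclin-dependent kinase inhibitor p21, was at 400 and 461 CPM in WT and 305 and 310 CPM in mutants (-0.49, adjusted p = 0.00641). Phlda3, an inhibitor of AKT, was at 33.0 and 45.7 CPM against 20.6 and 21.2 CPM (-0.91), and the polo-like kinases Plk2 and Plk3 differed by -0.39 and -0.72. Sesn1, a sestrin paralog of Sesn2, was the exception, higher by 0.41, a call lost without WT replicate 2 (0.29).

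Cell cycle genes leaned downwards in the mutants, as after PM alone and with vehicle (38 and 35 of 41 negative, medians -0.18 and -0.10). Of 41 tested, 30 were negative, 10 were lower and 0 higher by adjusted p, beside 4.38% and 2.9% of all tested genes, and the median was -0.19. With WT replicate 2 left out, 9 were lower, beside 2.3% of all genes, and the median was -0.18. E2f2, an activator of S-phase genes, was at 9.34 and 8.97 CPM in WT and 3.48 and 3.27 CPM in mutants (-1.44, SE 0.1, adjusted p = 0.000124). Kif23, a kinesin of cytokinesis, was at 4.37 and 3.86 CPM against 1.92 and 1.99 CPM (-1.08), and -0.98 without WT replicate 1. Cdk1, the mitotic kinase, was at 13.9 and 17.0 CPM against 8.66 and 9.96 CPM (-0.73). The most abundant members were Cdkn1a, an inhibitor that is on the p53 list too, and Pcna, a replication clamp that did not pass (-0.14, adjusted p = 0.248).

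NRF2 targets are the genes that OI is best known to raise. Nfe2l2, which encodes NRF2, differed by -0.07, and Gclm and Gclc, the subunits of the enzyme that starts glutathione synthesis, by 0.01 and -0.05. Of 33 tested NRF2 regulators and targets, 5 were lower and 0 higher by adjusted p, beside 4.38% and 2.9% of all tested genes, and the median was -0.15 (-0.05 without WT replicate 2). The 5 were Hmox1, Nqo1, Srxn1, Ptgr1 and Ftl1, of which Ftl1 was not called without that library and Ptgr1 moved from -0.69 to -0.45.

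Hmox1, haem oxygenase, was at 8365 and 10137 CPM in WT and 6465 and 6102 CPM in mutants (-0.56, SE 0.0899, adjusted p = 0.00891), and -0.41 without WT replicate 2. Nqo1, a quinone reductase, was at 208 and 245 CPM against 158 and 158 CPM (-0.52, SE 0.0802, adjusted p = 0.00735), and -0.40 without that library. Srxn1, sulfiredoxin, was at 2343 and 2597 CPM against 1633 and 1598 CPM (-0.61, adjusted p = 0.0016). The groups of each gene did not overlap, and none of the 5 reached the fold threshold. Hmox1 and Nqo1 were lower in mutants without OI too. With vehicle Hmox1 was at 1642 and 1701 CPM in WT against 1431 and 1480 CPM, and Nqo1 at 3.77 and 3.51 CPM against 2.29 and 2.16 CPM. After PM alone Hmox1 was at 3387 and 3809 CPM against 2633 and 2613 CPM, and Nqo1 at 47.2 and 45.1 CPM against 32.8 and 31.2 CPM. The letters TGACNNNGC of the antioxidant response element were in 7 of 33 windows of the list (21.2%). Of the 10714 windows of all tested genes, 1278 held them (11.9%). Among DEG windows, 5 of 20 for higher (25%) and 1 of 39 for lower genes (2.56%) did so.

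Of 33 tested glutathione genes, 6 were lower and 0 higher by adjusted p, beside 4.38% and 2.9% of all tested genes, with a median of -0.19. In the fit without WT replicate 2, 1 was lower and 1 higher, beside 2.3% and 1.49% of all genes, and the median was -0.02. Gsta4, a glutathione transferase that detoxifies lipid aldehydes, was the DEG and passed the filter through the WT libraries alone, at 2.94 and 4.29 CPM in WT and 1.08 and 1.34 CPM in mutants (-1.57, adjusted p = 0.00721), and -1.28 without WT replicate 2, but its call was lost without either mutant library. Of 29 tested genes of itaconate and TCA cycle metabolism, 1 was lower, the citrate carrier Slc25a1 (-0.41), and the median was -0.11. Idh1 and Mdh1, the most abundant of them, did not pass. By DESeq2 5 of the 29 were lower, beside 6.98% of all tested genes, and with the offset for gene length 6 were, beside 8.46%.

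The inflammatory cytokines Il1b and Il6 were low in all 4 libraries, and Tnf was near the median level of tested genes (31.9 CPM). Tnf was at 21.8 and 33.0 CPM in WT and 28.6 and 29.7 CPM in mutants, overlapping groups with a difference of 0.09 (adjusted p = 0.694). When WT replicate 2 was dropped, it was higher in mutants, by 0.42 (adjusted p = 0.0267). Il1b was at 2.20 and 2.97 CPM against 1.23 and 1.59 CPM (-0.87, adjusted p = 0.0299), and -0.64 (adjusted p = 0.143) without WT replicate 2. Il6 had 1 and 0 reads in WT and 4 and 3 reads in mutants, too few to test.

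Of 15 tested cytokines, 6 were lower and 0 higher by adjusted p, beside 4.38% and 2.9% of all tested genes, with a median of -0.49. With WT replicate 2 left out, 4 were lower and 1 higher, beside 2.3% and 1.49%, and the median was -0.09. Besides Spp1 and Il1b, the 6 called with all libraries were Il1a (-0.83), the macrophage growth factor Csf1 (-0.73), Il16 (-0.56) and Osm (-0.54), of which Il1b and Osm were not called without WT replicate 2. Chemokines were divided. Of 13 tested, 4 were higher and 2 lower, beside 2.9% and 4.38% of all tested genes, with a median of -0.03, and 4 were higher and 1 lower without WT replicate 2 (1.49% and 2.3% of all genes), with a median of 0.34. Besides Cxcl1, the monocyte attractants Ccl6 (161 and 169 CPM against 264 and 297 CPM, 0.76) and Ccl9 (0.44) and the platelet chemokine Ppbp (0.59) were higher, while Ccl3, at 71.2 and 107 CPM against 54.7 and 53 CPM (-0.73), was lower together with Ccl2. Ccl3 was not called without WT replicate 2 (-0.40, adjusted p = 0.077). Acute-phase and secreted defence genes had 2 of 11 higher, the DEGs Saa3 and Fpr1, and a median of 0.03.

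Interferon-stimulated genes leaned upwards, as with vehicle and after PM alone (47 and 43 of 53 positive, medians 0.19 and 0.14). Of 53 tested, 37 were positive, 6 were higher and 2 lower by adjusted p (2.9% and 4.38% of all genes), and the median was 0.17. In the fit without WT replicate 2, the median was 0.17 as well, with 2 higher (1.49% of all genes) and 0 lower. Samd9l, an antiviral protein, was at 62.7 and 46.7 CPM in WT and 92.3 and 93.1 CPM in mutants (0.76, adjusted p = 0.0158), and the guanylate-binding protein Gbp2 was higher by 0.66. Ifitm3, a membrane restriction factor with a short transcript, was lower (-0.52), as was Ifi204 (-0.30), and both calls were lost without WT replicate 2. Rtp4, which passed the filter through the mutant libraries alone, was the DEG, at 0.981 and 0.626 CPM against 1.56 and 1.83 CPM (1.06), and 0.79 without WT replicate 2. Its call was lost without either mutant library too.

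Surface receptors of macrophages changed in both directions. Of 21 tested scavenger and C-type lectin receptors, 6 were higher and 3 lower, beside 2.9% and 4.38% of all tested genes, with a median of 0.21. When WT replicate 2 was dropped, 7 were higher and 2 lower, beside 1.49% and 2.3%, with the same median. Clec4a3, a C-type lectin, was at 11.1 and 12.3 CPM in WT and 19.5 and 20.0 CPM in mutants (0.76, adjusted p = 0.00177), and Clec12a was higher by 0.61 and Clec4a2 by 0.46. Scarb1, the high-density lipoprotein receptor, was lower at 210 and 209 CPM against 154 and 156 CPM (-0.44), and Colec12 by -0.55. Adgre1, the F4/80 antigen on the macrophage marker list, was higher, at 976 and 857 CPM against 1439 and 1345 CPM (0.60, SE 0.0784, adjusted p = 0.00295), while Cd68 was lower (-0.36, not called without WT replicate 2).

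Of 24 tested LXR and PPAR lipid-handling genes, 2 were higher and 6 lower, beside 2.9% and 4.38% of all tested genes, with a median of -0.14. With WT replicate 2 left out, 1 was higher and 4 were lower, beside 1.49% and 2.3%. Fabp4, a fatty acid binding protein, was at 83.2 and 91.2 CPM in WT and 53.9 and 56.6 CPM in mutants (-0.66), and Hilpda, a lipid droplet protein, at 127 and 200 CPM against 88.4 and 91.3 CPM (-0.86, and -0.49 without that library). The phospholipid carrier Pltp was higher (0.40), though not without WT replicate 2. Of 29 SREBP cholesterol synthesis genes, 1 was higher and 2 were lower (Mvd, -0.60, and Fdft1, -0.35, the latter not called without that library), with a median of -0.10. Of 35 lysosome genes, 1 was higher and 5 lower, with a median of -0.09. With that library left out, 0 SREBP genes were higher and 2 lower, and 2 lysosome genes were higher and 4 lower, beside 1.49% and 2.3% of all genes.

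Among smaller lists, of 7 genes of MHC class II presentation, 2 were lower, H2-DMa (-0.54) and Cd86 (-0.66), and the median was -0.22. Of 11 genes of alternative activation and arginine metabolism, 3 were lower, Tgm2, the ribonuclease Ear2 (-0.93) and the receptor Il4ra (-0.29), and the median was -0.15. Beside these shares, 4.38% of all tested genes were lower. Without WT replicate 2 the median was -0.12 for MHC class II presentation and -0.13 for alternative activation, and lower calls were lost in both lists. Of 4 tested sex-linked genes, 0 passed by edgeR. By DESeq2, and by edgeR with the offset for gene length, 1 was lower, beside 6.98% and 8.46% of all tested genes.

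Of 69 cytosolic ribosomal protein genes, 65 were negative and the median was -0.42. By adjusted p 4 were lower, beside 4.38% of all tested genes. By DESeq2 18 were lower, beside 6.98%. With the offset for gene length 18 were lower and 1 higher, beside 8.46% and 7.56%, and the median was -0.23. When WT replicate 2 was dropped, 0 were lower by edgeR and the median was -0.08. Rps3 stood at 824 and 1243 CPM in WT and 710 and 748 CPM in mutants (-0.50, adjusted p = 0.0993). Of 73 nuclear-encoded respiratory chain genes, 68 were negative with a median of -0.29, and 0 passed by edgeR. At an unadjusted p under 0.05 there were 15, beside 29.5% of all tested genes, and by DESeq2 2 were lower by adjusted p, beside 6.98%. Without that library 44 were positive and 29 negative, and the median was 0.02.

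Transcripts encoded by mitochondrial DNA went the other way. All 7 tested were positive, with a median of 0.27, and 4 were higher by adjusted p, beside 2.9% of all tested genes. The median was 0.34 without WT replicate 2 and 0.51 with the offset for gene length. They made up 1.58% and 1.32% of counts in WT and 1.85% and 1.87% in mutants. mt-Nd2, a complex I subunit, stood at 1161 and 1052 CPM against 1561 and 1580 CPM (0.51, adjusted p = 0.00262). The share of these transcripts also depends on RNA quality and selection, whose part in the difference was not tested.

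The genotype difference was then set beside that after PM alone and with vehicle, which use other libraries. The WT replicates after PM deviated along gene length like those after OI and PM (correlation 0.80), so these comparisons share that pattern. Of the 77 DEGs, 29 (37.7%) were also DEGs after PM, where they were 69.0% of 42 DEGs (0.398% of tested genes). With vehicle 21 of the 77 (27.3%) were DEGs, 63.6% of the 33 there (0.313%). A set of 18 genes, 9 higher and 9 lower, were DEGs in all 3 treatments. In sign, 74 of the 77 matched after PM and 72 with vehicle. The share of matching signs over all tested genes is not given, so these counts are a description only.

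With vehicle and after PM alone the differences of these genes were smaller at the median. The 28 higher DEGs had a median of 1.23 after OI and PM, 0.88 after PM and 0.85 with vehicle, and the 49 lower DEGs had -1.34, -0.88 and -0.72. As the 77 were chosen for their size after OI and PM, this is a description only. Mmp9 differed by 2.84 after OI and PM, 2.03 after PM and 2.24 with vehicle. Timp2 differed by 1.11, 0.79 and 0.69. Lrmda was nearly the same throughout, at -3.85, -3.81 and -3.78. H2-K2 was an exception among the leading genes, at -1.09, 0.12 and -0.06.

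**Figure D5:**
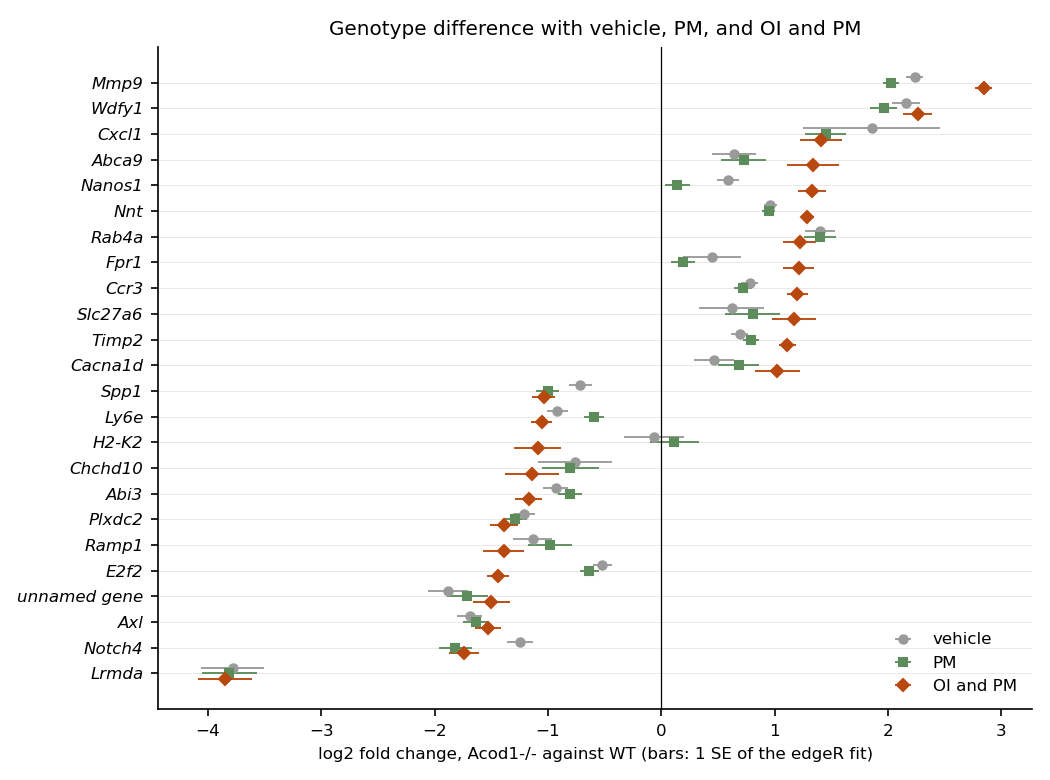
Genotype difference (log2 fold change of Acod1-/- over WT) of the 24 leading DEGs, with vehicle, after PM, and after OI and PM, with bars of 1 SE of the fit. Mmp9 lies near the right end and Lrmda furthest to the left in all 3 treatments, and H2-K2 lies near 0 except after OI and PM.

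Tests of the difference between genotype differences called few genes. Against PM alone, 0 genes passed by edgeR (smallest adjusted p = 0.0961), with 648 (6.14%) at an unadjusted p under 0.05, and DESeq2 called 37 by adjusted p, of which 3 passed the fold threshold. The leading genes were Mmp9, whose difference was larger by 0.82 after OI and PM, Nanos1 (by 1.19), the non-coding F630028O10Rik (by 0.91) and Zfp36, an mRNA-destabilising protein (-0.63). Zfp36 was at 86.3 and 85.9 CPM in WT and 71.7 and 70.7 CPM in mutants after OI and PM, and at 58.5 and 61.9 CPM against 74.9 and 78.6 CPM after PM. Its order was therefore turned, with an adjusted p of 0.0961 by edgeR, 7.49e-08 by DESeq2 and 0.0388 by edgeR with the offset for gene length. Mmp9, Nanos1 and F630028O10Rik likewise passed the adjusted p with DESeq2 and with that offset.

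Against vehicle, 3 genes passed by adjusted p (0.0284%), 2 of them, Plau and Mmp8, with the fold threshold as well (0.0189%). Plau, the urokinase plasminogen activator, was at 511 and 493 CPM in WT and 321 and 309 CPM in mutants after OI and PM, but at 1247 and 1369 CPM against 1668 and 1737 CPM with vehicle. Serpinb9b, a serine protease inhibitor, was at 319 and 338 CPM against 361 and 349 CPM after OI and PM, but at 30.5 and 26.6 CPM against 15 and 16.4 CPM with vehicle. Mmp8, neutrophil collagenase, was at 404 and 333 CPM against 421 and 418 CPM, but at 56.6 and 57.7 CPM against 26.7 and 31.4 CPM with vehicle. The mutants were thus lower for Plau after OI and PM and higher with vehicle, and lower for Serpinb9b and Mmp8 with vehicle.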

How the data were processed

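The authors aligned 50 bp single-end reads to GRCm38 and counted reads per gene. The submitters' processing notes name FastQC 0.11.5, STAR 2.5.3a, Picard 2.9.0, featureCounts and DESeq2, and the strand setting is not given in the sources used here. The files as deposited hold untransformed read counts, 1 value per gene for each library. Gene IDs were matched to GENCODE M21 (GRCm38) for symbols, positions and exonic lengths.

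The members, gene lists and tests were chosen with earlier results of these data known. Counts were normalized by TMM and tested with the quasi-likelihood test of edgeR 4.0.16 (R 4.3.3) with Benjamini-Hochberg adjustment over 10556 genes. All 12 libraries entered 1 fit with 6 group means, so the groups shared an estimate of spread, and the 2 interactions came from that fit. Adjusted p-values in the text are from this fit unless another tool is named. At low CPM a call rested on few reads.

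Named genes were Acod1; Tnf, Il1b, Il6, Nfe2l2, Nqo1, Gclm and Hmox1; the 12 leading non-overlapping DEGs per direction with a mean of at least 5 CPM; DEGs on 33 fixed lists and their 2 most abundant members; the 5 leading interaction genes; substrain and sex-linked genes; the 3 genes per direction with the widest WT spread; and Mmp9, Saa3, Lrmda, Gdf3 and Axl. Further list members, Slco4a1, Camk2b and the genes with printed promoters were chosen after their values were seen. Alternatives were DESeq2 1.42.0, other scalings and filters, a fold-threshold test, a replicate block, a gene length offset (chosen because of the WT replicates) and leaving out each library. The fit was also run on simulated data, from which no result is given here.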

Additional observations from a re-analysis of the deposited data

Results flagged for a closer look

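For 3 genes the genotype difference after OI and PM differed from that with vehicle by the interaction test of edgeR. For Plau it was lower by -1.05 on the log2 scale (adjusted p = 0.0183), with a difference of -0.67 after OI and PM and 0.38 with vehicle. For Serpinb9b it was higher by 0.97 (adjusted p = 0.0412), with 0.11 after OI and PM and -0.86 with vehicle. For Mmp8 it was higher by 1.16 (adjusted p = 0.0432), with 0.19 and -0.98. With an offset for gene length, along which the WT OI+PM replicates differ, the adjusted p was 0.0125 for Plau, 0.00654 for Serpinb9b and 0.0472 for Mmp8. The number of genes passing both thresholds in this interaction changed with the scaling and with single libraries left out, as given below.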

How the results depend on the processing

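The 77 DEGs (28 higher, 49 lower) kept their sign in every alternative in which they were tested. The count moved to 126 (47 higher, 79 lower) with a filter of 10 counts in total, 41 (17 and 24) with CPM above 1.5 in all 4 libraries, 6 (3 and 3) with glmTreat against the fold threshold, and 768 (306 and 462) without that threshold. With edgeR on the 4 libraries alone it was 2 (2 and 0), and with DESeq2 on these 52 (21 and 31). It was 79 with DESeq2 on 12 libraries, 77 with RLE scaling, 78 with total count scaling and 80 with the length offset. Leaving out 1 library gave 37 to 266 DEGs, 16 to 167 higher and 21 to 99 lower. Against PM the interaction, 0 genes in the reported fit, gave 3 with DESeq2, 4 with the length offset, 2 with length offset and block, and 0 to 29 leaving out 1 library. Against vehicle, 2 genes passed both thresholds, 11 with DESeq2, 1 with RLE, 1 with total count scaling, 5 with the length offset, 5 with length offset and block, and 0 to 118 leaving out 1 library.

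Replicate numbers are shared between the groups, but with 2 pairs, whose deviations correlated at 0.32, they do not establish pairing. The fit with the replicate block gave 77 DEGs, and 85 together with the length offset.

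The design has 2 libraries per group, and WT replicates after OI and PM, and after PM alone, differ in a way that follows transcript length. Changes of short, abundant transcripts and of genes near the fold threshold depend on it. The sources used here do not say whether replicates were separate animals, and the WT label names no substrain. At levels of a few CPM the fold changes carry wide errors. Leaving out 1 mutant library ended the calls of many DEGs, such genes among them.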
